A study of Mus musculus with 6 samples.

Results

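*Rhox5*, *Rhox6*, *Rhox8* and *Rhox9* are reproductive homeobox genes of the mouse X chromosome. They were chosen by symbol, as 4 of the 26251 genes listed in the libraries and 4 of the 30 listed symbols that begin with Rhox. Fetal gonads of embryonic stage E15.5 were studied by single cell mRNA sequencing in droplets (10x Genomics), with 2 libraries in each of 3 groups. Control XY testes and control XX ovaries were *Amh*+/+; *Inhbb*+/+, and dKO XY testes were *Amh*-/-; *Inhbb*-/-, without the genes of anti-Müllerian hormone and of the subunit that forms activin B. All animals descended from single heterozygotes crossed on C57BL/6, both gonads of an animal were combined, and cells were stored frozen and genotyped before use. Every cell of a dKO XY gonad carried the knockout alleles, and which part of each gene they lack and how many animals went into a library are not given in the sources used here. The question for these genes is in which cells they were transcribed and how their levels differed when XY gonads lacked both hormones, or were XX.

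A homeobox encodes the DNA-binding domain of a transcription factor, and the Rhox genes form a cluster on the X chromosome whose members are mainly used in testis, ovary, epididymis and placenta. *Rhox5*, first described as Pem, is the best studied member and is driven by androgen in Sertoli cells after birth. *Rhox8* is also an androgen-responsive gene of Sertoli cells. *Rhox6* and *Rhox9*, first described as Psx1 and Psx2, are placental genes that are also used in germ cells. DNA methylation keeps several Rhox genes silent in cells that do not use them. Sertoli cells and granulosa cells are the supporting cells of testis and ovary, which surround the germ cells and develop from a common precursor.

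On GRCm38 (GENCODE M21 annotation), the annotated Rhox genes run over 1092225 bp of chromosome X, from 37213804 to 38306028. *Rhox5* (ENSMUSG00000095180.8) lies at X:37804842-37808876 on the plus strand, and *Rhox6* (ENSMUSG00000006200.3) at X:37826910-37829857 on the same strand. *Rhox8* (ENSMUSG00000064137.6) at X:37874778-37878944 and *Rhox9* (ENSMUSG00000068048.8) at X:37899097-37901770 are on the minus strand. The stretches below show how alike the members are, which bears on whether their reads can be told apart. Each holds 90 coding bases from exons 3 and 4, spliced across the intron between them. Capitals mark the tryptophan and phenylalanine codons of the recognition helix, the part of the homeodomain that contacts DNA.
*Rhox5*, X:37806075-37808659 (+): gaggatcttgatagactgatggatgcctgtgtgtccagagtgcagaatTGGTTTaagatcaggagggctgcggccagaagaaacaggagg
*Rhox6*, X:37828416-37829668 (+): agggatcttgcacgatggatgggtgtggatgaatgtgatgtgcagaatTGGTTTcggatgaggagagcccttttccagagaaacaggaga
*Rhox8*, X:37874959-37876267 (-): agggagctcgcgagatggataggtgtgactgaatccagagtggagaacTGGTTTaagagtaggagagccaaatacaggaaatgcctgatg
*Rhox9*, X:37899255-37900324 (-): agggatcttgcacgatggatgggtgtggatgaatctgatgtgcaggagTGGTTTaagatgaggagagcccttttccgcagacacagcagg

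*Rhox6* and *Rhox9* differed at 10 of the 90 positions, whereas the other pairs differed at 29 to 34. With the *Rhox6* base first and positions counted from 1 at the 5′ end, the differences were G35C, A46G, T48G, C55A, G56A, A77G, G78C, A82C, G87C and A90G. Over the whole coding sequence the pair was 90.6% identical, against 47.0% to 51.1% for the other pairs. Their transcripts shared 159 words of 50 letters, 16.5% of those of *Rhox6* and 6.28% of those of *Rhox9*, and no other pair of members shared one. Reads within such words cannot be assigned to 1 of these paralogs, and how they were counted upstream is not given in the sources used here. Values of *Rhox6* and *Rhox9* may therefore miss such reads or hold some that belong to the other of the pair. Between the members, *Rhox5* and *Rhox8* do not share this limit.

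The libraries held 39350 cells after filtering, with 118475468 to 221675316 unique molecular identifiers (UMIs, 1 per captured mRNA molecule) each. In supporting cells, *Amh* had 2129 and 1949 UMIs per 1000000 (CPM) in control XY against 18.1 and 15.8 CPM in dKO XY, and *Inhbb* was at 170 and 189 CPM against 42.3 and 51.0 CPM. Both targeted genes were thus lower in the libraries labelled dKO XY than in control XY, and the remaining *Inhbb* transcripts were above the 37.3 and 25.6 CPM of control XX. A dKO XY library lost more of its barcodes to the filter of 25% mitochondrial UMIs (24.4% and 28.3%) than any other library (2.22% to 9.35%), and whether this bears on the levels given here was not tested. Cell barcodes shared by more than 1 library made up 0.892% of the cells. Cells were clustered without 11 Rhox genes that were among the variable genes, so the clusters do not rest on the members. The 8 cell types were named from marker lists, and the cluster named immune also carried erythroid transcripts. Control XY gave only 15 and 7 germ cells against 259 and 228 in control XX and 413 and 277 in dKO XY, and control XX gave no Leydig cells. Levels are UMIs of a gene summed over the cells of 1 type in 1 library, per 1000000 UMIs of those cells, and differences were tested with edgeR over these sums, with 2 libraries per group. Levels of different genes are not compared, since the captured end and length of the molecules are not known here.

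The members divided by cell type, with *Rhox8* highest in supporting cells and *Rhox5*, *Rhox6* and *Rhox9* highest in germ cells in each of the 3 groups. Of the 25000 UMIs of *Rhox8* in all cells, 75.4% lay in supporting cells, 12.2% in Leydig cells and 0.62% in germ cells. Germ cells made up 3.05% of the cells and 4.08% of the UMIs, yet held 57.9% of the 17534 UMIs of *Rhox5*, 83.1% of the 3374 of *Rhox6* and 83.5% of the 4769 of *Rhox9*. In every group the lowest library of the leading cell type was above the highest library of the next type, for each member. For *Rhox6* and *Rhox9* of control XY this order rests on 1 library of 15 germ cells with 1 and 3 UMIs, 2.02 and 6.05 CPM, where 3 UMIs are 6.05 CPM, so it is at the limit of detection.

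**Figure D1:**
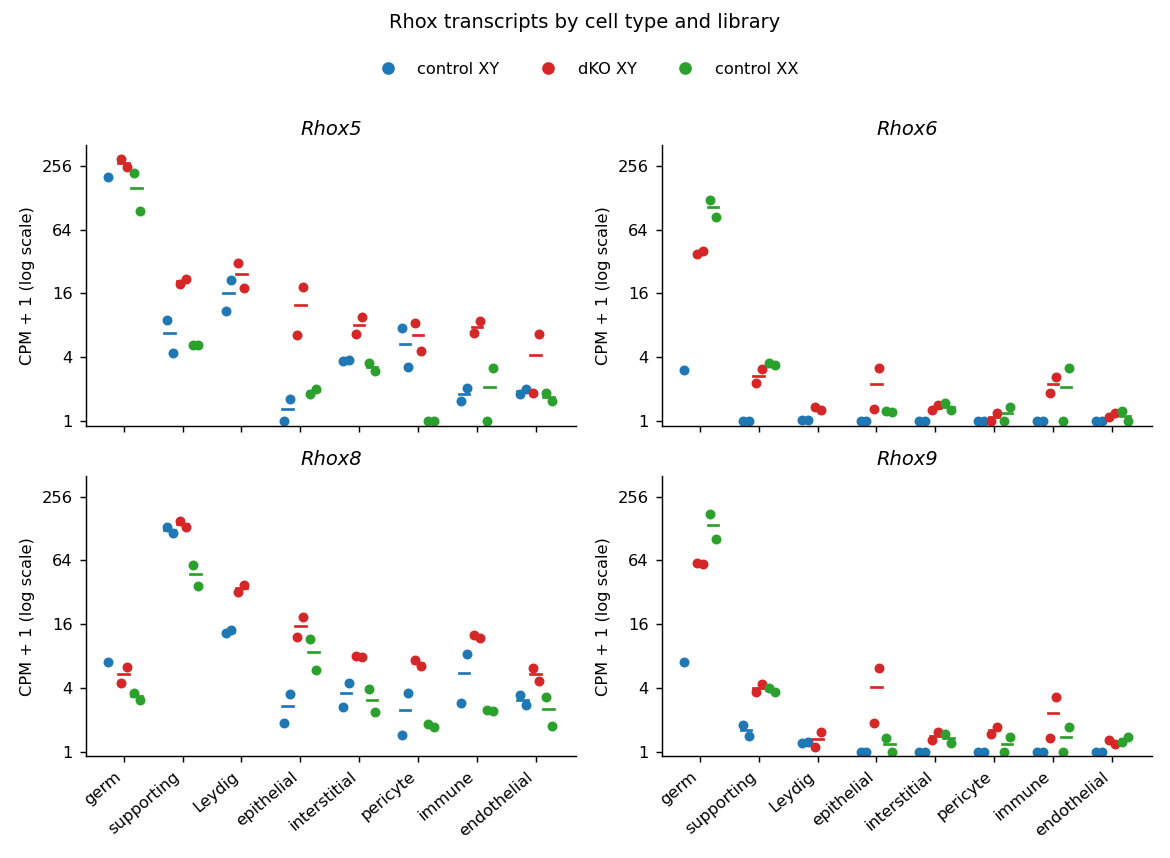
Level of each member (CPM + 1, log scale) by cell type, with 1 point per library, coloured by group, and a bar at the group mean; sums of under 10 cells are left out, so germ cells of control XY show 1 library. *Rhox8* peaks in supporting cells, at 35.8 to 150 CPM, and the other members peak in germ cells.

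In control XX, where the libraries held at least 228 germ cells each, germ cells exceeded supporting cells of the same libraries in *Rhox5* by 5.38 ± 0.36 on the log2 scale (SE; edgeR, adjusted p = 8.16e-14). The difference was 5.54 ± 0.27 for *Rhox6* and 5.74 ± 0.30 for *Rhox9* (edgeR, adjusted p = 1.10e-15 and 8.47e-15), and *Rhox8* was lower in germ cells, with a log2 change of -4.21 ± 0.30 (edgeR, adjusted p = 1.53e-13). This contrast called 72.7% of all genes, so a call in it is common, and the size and direction set the members apart from each other rather than the call. In dKO XY, which called 67.2% of genes, the log2 differences were 3.91 ± 0.31, 4.67 ± 0.27 and 4.48 ± 0.29 for *Rhox5*, *Rhox6* and *Rhox9*, and -4.92 ± 0.23 for *Rhox8* (edgeR, adjusted p from 5.55e-17 to 6.06e-12). In control XY, with 1 germ cell library of 15 cells and 23.6% of genes called, *Rhox5* was higher in germ cells by 5.41 ± 0.75 and *Rhox8* differed by -4.25 ± 0.80 (edgeR, adjusted p = 2.71e-06 and 0.000165). The spread of that 1 library was taken from the other groups, so these errors hold none between control XY germ cell libraries. *Rhox6* and *Rhox9* were not called there by edgeR (adjusted p = 0.100 and 0.176) and were by DESeq2 (6.89 and 3.47; adjusted p = 0.00884 and 0.0179), and *Rhox6* was also called with cells of more than 1500 genes (8.32; edgeR, adjusted p = 0.0237). Control XY supporting cells had no *Rhox6* UMI under the main filter, so the size of its fitted values there is not a measured fold. Without the second control XY library, the *Rhox5* difference was 4.62, and without the first control XX library the *Rhox5* difference in control XX was 4.69.

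*Rhox8* was the member of the supporting cells. It was at 131 and 115 CPM in control XY (123 ± 11.5, SD, n = 2), at 150 and 131 CPM in dKO XY (141 ± 13.9) and at 57.2 and 35.8 CPM in control XX (46.5 ± 15.1). Every XY library, with or without the hormones, was thus above both XX libraries, and the libraries of the XY groups overlapped. Control XX was lower than control XY, with a log2 change of -1.44 ± 0.21 (edgeR, adjusted p = 0.00025), in a contrast that called 49% of genes. It was also below dKO XY, which was higher by 1.64 ± 0.20 (edgeR, adjusted p = 0.00015, 41.2% of genes called). Between dKO XY and control XY the log2 difference was 0.19 ± 0.20 (edgeR, adjusted p = 0.587), in a contrast that called 16.8% of genes. Thinned to 5000 UMIs per cell, *Rhox8* had a UMI in 40.7% and 33.1% of control XY, 41.4% and 37.2% of dKO XY and 18.1% and 13.5% of control XX supporting cells. Before thinning these shares were 73.3% and 64.8%, 73.5% and 77.3%, and 46.9% and 37.2%. By the number of cells with a molecule, as by the summed level, every XY library lay above both XX libraries. In endothelial cells of control XY, a type that should lack the gene, the thinned share was 1.02% and 1.39%. Median UMIs per cell were 19314 to 31037 in supporting and 25372 to 43570 in endothelial cells.

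Supporting cells of dKO XY were a mixture, and *Rhox8* was followed through it. Clustered again, supporting cells fell into 5 clusters, and markers were counted in each against the other supporting cells alone. Clusters 2 and 4 carried all 11 Sertoli markers and held 677 and 423 cells of dKO XY and 190 and 408 of control XY. They are given by number, since germ cell genes (*Dppa5a*, *Dppa3* and *Utf1*) led cluster 2 and genes of dividing cells led cluster 4. Clusters 0 and 1 held 72 and 24 cells of dKO XY and 2715 and 902 of control XX. Cluster 0 carried 9 of 10 granulosa markers. Cluster 1, which held most of these dKO XY cells (51 and 15), carried 3 of 10 granulosa and 4 of 7 erythroid markers, and cluster 4 also carried 4 of 7 erythroid markers. No granulosa marker was among the 10 leading genes of cluster 1, so clusters 0 and 1 are given by number too. Such counts miss markers that both share. Against all cells, the cluster with most control XX supporting cells (2989 and 1147) carried 10 of 10 granulosa markers. Cluster 3 was led by *Smoc2*, *Myl1* and *Robo2* and was left unnamed. It held 416 and 439 cells of dKO XY, 11 and 24 of control XY and 16 and 8 of control XX. Against the other supporting cells it carried 8 of 8 interstitial and 5 of 6 Leydig markers, with 0 of 11 Sertoli and 2 of 10 granulosa. In the clustering of all cells, a supporting cluster led by *Myl1* held 406 and 434 cells of dKO XY. Against all cells that cluster carried 0 of 8 interstitial, 0 of 6 Leydig, 1 of 11 Sertoli, 4 of 10 granulosa and 3 of 7 supporting cell markers. Its overlap with cluster 3 was not counted. In clusters 2 and 4, *Rhox8* was at 144 and 106 CPM in dKO XY against 153 and 125 CPM in control XY, a log2 difference of -0.20 ± 0.38 (edgeR, adjusted p = 0.827) where 11.7% of genes were called. Cluster 3 cells of dKO XY had 192 and 173 CPM, above both dKO XY libraries of clusters 2 and 4, and the few of control XY had 49.6 and 261 CPM. Cells of clusters 0 and 1 of dKO XY, at 84.3 and 91.1 CPM, lay above those of control XX, at 57.9 and 35.8 CPM, and below the other dKO XY supporting cells.

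**Figure D2:**
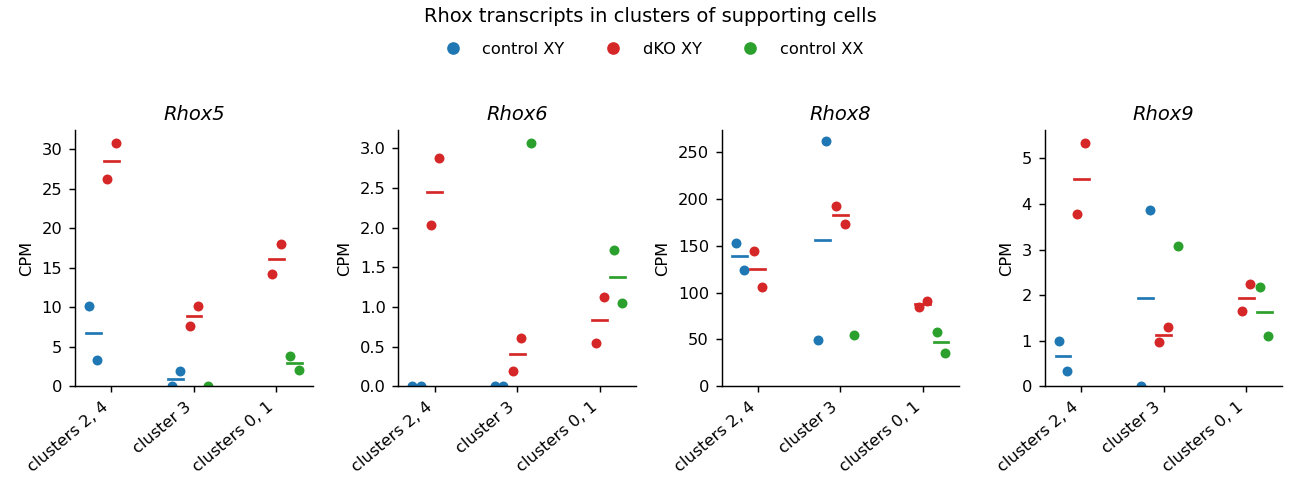
Level of each member (CPM) in supporting cell clusters 2 and 4 (with Sertoli markers), 3 (unnamed) and 0 and 1 (mostly of control XX), with 1 point per library of at least 10 such cells, coloured by group, and a bar at the group mean. *Rhox8* of dKO XY stands at 173 and 192 CPM in cluster 3 and at 84.3 and 91.1 CPM in clusters 0 and 1; *Rhox5* of dKO XY is highest in clusters 2 and 4, at 26.2 and 30.8 CPM.

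Within dKO XY, clusters 0, 1 and 3 together differed from clusters 2 and 4 of the same libraries in *Rhox5* by -1.45 ± 0.16 on the log2 scale, in *Rhox6* by -2.33 ± 0.48 and in *Rhox9* by -1.80 ± 0.36 (edgeR, adjusted p = 1.19e-06, 0.00097 and 0.000606). *Rhox8* differed by 0.59 ± 0.23 (edgeR, adjusted p = 0.0512). This contrast called 44.4% of genes. It has 2 dKO XY libraries, and without the first of them the calls of *Rhox5*, *Rhox6* and *Rhox9* were lost (-1.44, -2.06 and -1.89; edgeR, adjusted p = 0.0578, 0.345 and 0.253), while *Rhox8* was called (0.76; edgeR, adjusted p = 0.0396). Without the second, *Rhox5*, *Rhox6* and *Rhox9* were at -1.47, -2.88 and -1.68 (edgeR, adjusted p = 0.0672, 0.244 and 0.394). *Rhox8* was also called without either control XY library (0.57 and 0.59; edgeR, adjusted p = 3.86e-07 and 5.48e-09), which enter through the shared spread. Summed over 8 germ cell markers, the dKO XY cells of clusters 2 and 4 had 366 and 493 CPM and the other dKO XY supporting cells 65.7 and 116 CPM, and the part of this in the 3 lower members was not tested.

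Outside the supporting cells, *Rhox8* differed between the XY groups in Leydig cells, the steroid-producing cells of the fetal testis. It was at 12.2 and 12.9 CPM in control XY (12.6 ± 0.488, SD, n = 2) and at 31.2 and 36.8 CPM in dKO XY (34.0 ± 3.95). The libraries of the groups did not overlap, and dKO XY was higher by 1.41 ± 0.11 on the log2 scale (edgeR, adjusted p = 0.00142) in a contrast that called 6.73% of genes. Leaving out any 1 library gave values of at least 1.31. Thinned cells with a *Rhox8* UMI made up 5.86% and 7.69% of control XY Leydig cells, and 12.6% and 11.4% of those of dKO XY, against 26.6% and 30.9%, and 40.8% and 47.6%, before thinning. In the same dKO XY libraries the thinned share was 3.32% and 5.61% in immune cells and 1.95% and 0.826% in endothelial cells, types that should lack the gene. In control XY it was 0 (exact 95% upper limit 2.38%) and 4.96% in immune cells. Exact 95% intervals of Leydig and immune cells overlapped in the second library of each group (9.22% to 14.0% against 2.09% to 11.8% in dKO XY, 6.19% to 9.42% against 1.84% to 10.5% in control XY). These intervals take the cells of a library as independent, and their overlap is not a test, so the shares are a description. Median UMIs per cell were 35276.5 to 41186.5 in Leydig and 18933 to 24751 in immune cells. Cells with 10 or more *Rhox8* UMIs, a limit set after the values were seen, numbered 38 of 1429 dKO XY Leydig cells and held 36.4% of the *Rhox8* UMIs of these cells. In control XY there were 3 of 1873, which held 11.5%.

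The libraries of dKO XY also lay higher in *Rhox8* in other cell types, of which interstitial cells were tested. Immune cells had 11.5 and 10.7 CPM in dKO XY against 1.87 and 7.26 CPM in control XY, endothelial cells 5.10 and 3.59 CPM against 2.40 and 1.74 CPM, and interstitial cells 6.96 and 6.81 CPM against 1.63 and 3.45 CPM. In each of these types both dKO XY libraries were above both control XY libraries. The same held in pericytes and epithelial cells, whose values are given under the other observations. For interstitial cells, where 7.2% of genes were called, the log2 difference was 1.43 ± 0.37 (edgeR, adjusted p = 0.0602), and without the second control XY library it was 2.07 (edgeR, adjusted p = 0.0244). Summed Sertoli markers (11, with none at 0 in any of these sums) moved with the values of Leydig cells. They were at 139 and 209 CPM in control XY and 279 and 278 CPM in dKO XY Leydig cells, against 5747 and 5216 CPM, and 5997 and 4208 CPM, in supporting cells. For every 100 UMIs of these markers, supporting cells had 2.29 and 2.21 UMIs of *Rhox8* in control XY and 2.51 and 3.11 in dKO XY, while Leydig cells had 8.80 and 6.19, and 11.2 and 13.2. The ratio in Leydig cells was thus above that in all supporting cells together in all 4 XY libraries. In Leydig cells, both dKO XY libraries were above both control XY libraries in it. Supporting clusters 0, 1 and 3 of dKO XY had more *Rhox8* per Sertoli marker than Leydig cells, at 176 and 168 CPM beside 1176 and 1002 CPM. Supporting cells, which held most *Rhox8* UMIs, were also fewer in control XY. They numbered 236 of 6818 and 517 of 8569 cells in control XY, and 1256 of 8151 and 949 of 5701 in dKO XY. The part of supporting cells, or of these clusters, in the values of Leydig and other cell types was not tested. Granulosa markers (10, of which 1 was at 0 in each control XY library) were at 186 and 196 CPM in control XY and 363 and 405 CPM in dKO XY Leydig cells, and their part in the result was not tested.

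The change of *Rhox8* between the XY groups differed by cell type. In 1 fit over all cell types, the log2 difference between dKO XY and control XY was larger in Leydig than in supporting cells by 1.19 ± 0.24 (edgeR, adjusted p = 0.000742, 13.1% of genes called) and larger in interstitial than in supporting cells by 1.25 ± 0.25 (edgeR, adjusted p = 0.000566, 14.9% of genes called).

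**Figure D3:**
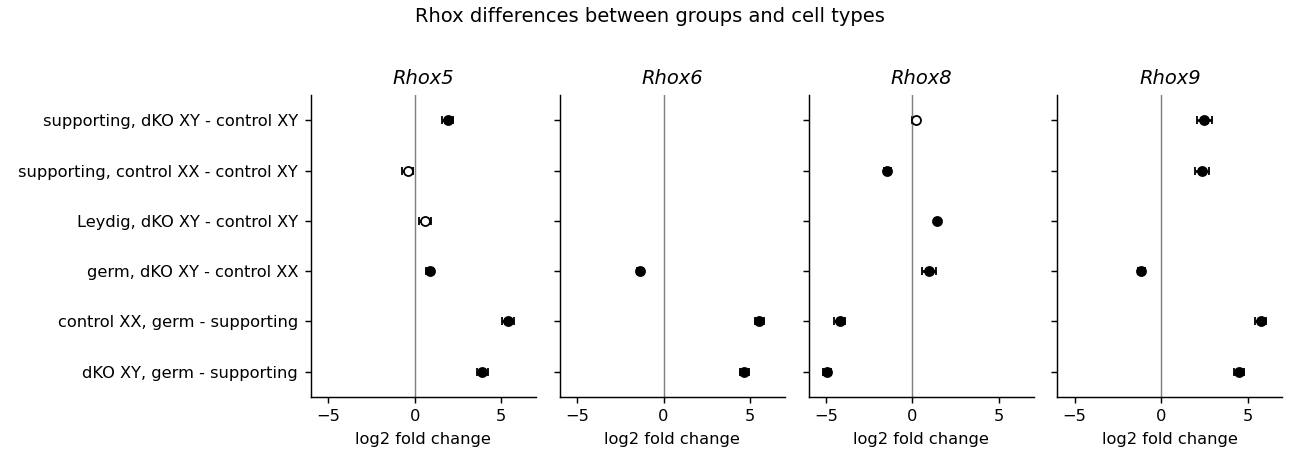
Log2 fold change of each member with its SE in edgeR comparisons between groups and between germ and supporting cells; filled points have an adjusted p under 0.05. In dKO XY against control XY, *Rhox8* is higher in Leydig cells (1.41) and close to 0 in supporting cells (0.19); *Rhox6* is not drawn for supporting cells against control XY, where it had no UMI, nor *Rhox6* and *Rhox9* for Leydig cells, where they were too low to test.

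*Rhox5* was at 295 and 251 CPM in dKO XY germ cells (273 ± 30.7, SD, n = 2), at 219 and 94.7 CPM in control XX germ cells (157 ± 88.0) and at 202 and 284 CPM in the 15 and 7 germ cells of control XY. The control XX libraries were far apart and all XY libraries but the first of control XY were above both of them. dKO XY was higher than control XX by 0.88 ± 0.21 on the log2 scale (edgeR, adjusted p = 0.000305), in a contrast that called 49.6% of genes. Without the second control XX library the difference was 0.41 and was not called (edgeR, adjusted p = 0.166), and without the first it was 1.55. By DESeq2 it was 0.82 (DESeq2, adjusted p = 0.234). Between dKO XY and the 1 control XY library with 10 germ cells or more, *Rhox5* differed by 0.58 ± 0.30 (edgeR, adjusted p = 0.238), where 9.81% of genes were called. A *Rhox5* UMI was found in 65.9% and 67.9% of dKO XY and 44.4% and 28.1% of control XX germ cells after thinning, and in 93.7% and 95.3%, and 66.4% and 50.9%, before.

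For the paralogs *Rhox6* and *Rhox9* the difference between dKO XY and control XX germ cells had the opposite direction, with control XX above dKO XY, and control XY was lowest. *Rhox6* was at 122 and 84.1 CPM in control XX (103 ± 26.9, SD, n = 2) and at 36.6 and 39.6 CPM in dKO XY (38.1 ± 2.10), and control XY had 1 UMI in each library. *Rhox9* was at 173 and 102 CPM in control XX (138 ± 50.6) and at 59.6 and 58.3 CPM in dKO XY (59.0 ± 0.952), with 3 and 1 UMIs in control XY. No library of one of these groups overlapped with another group. Against control XX, dKO XY differed by -1.36 ± 0.19 in *Rhox6* and by -1.14 ± 0.19 in *Rhox9* on the log2 scale (edgeR, adjusted p = 1.75e-08 and 1.16e-06). Against control XY, the ratio of levels, as UMIs summed over a group per total UMIs of its germ cells, was 16.7 for *Rhox6* in dKO XY (964 UMIs against 2, with an exact 95% interval of 4.62 to 138) and 46.6 in control XX (1838 UMIs, 12.9 to 385). For *Rhox9* the ratios were 13.1 (1509 UMIs against 4, 5.11 to 48.2) and 31.3 (2471 UMIs, 12.2 to 115). These intervals cover counting error only. Both genes were called against the first control XY library, in dKO XY (edgeR, adjusted p = 0.000201 for *Rhox6* and 9.09e-05 for *Rhox9*) and in control XX (edgeR, adjusted p = 3.53e-09 and 3.19e-09, 27.6% of genes called), with a spread taken from the other groups.

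Germ cells of the 3 groups differed in state, so the members were also followed within clusters of germ cells, made after these levels were known and without Rhox genes. Germ cluster 0, led by *Lefty2*, *Lefty1*, *Nanog* and *Nodal*, genes of a pluripotency-like state, held most dKO XY germ cells (238 and 157), 11 and 7 of control XY and 12 from the first control XX library. Germ cluster 3, led by *Cdx2*, *Dlx3* and *Rec8*, held 26 and 18 control XX and 68 and 51 dKO XY cells. Germ cluster 2, led by *Stra8*, the gatekeeper gene of meiosis, held 119 and 54 control XX and 23 and 19 dKO XY cells, and cluster 4, led by *Gc*, *Reg2* and *Shank1*, held 58 and 95 control XX cells. The cells of germ cluster 1, which mixed germ with somatic transcripts such as *Ptn* and *Dcn*, numbered 44 and 61 in control XX, 84 and 50 in dKO XY and 4 in control XY. The groups thus drew their germ cells from different clusters. *Rhox8* stayed low in all of these germ cells together, at 3.43 and 5.35 CPM in dKO XY and 2.58 and 2.05 CPM in control XX, a log2 difference of 0.96 ± 0.39 (edgeR, adjusted p = 0.0333) that was not called without the second control XX library (0.83; edgeR, adjusted p = 0.115) or the second dKO XY library (0.65; edgeR, adjusted p = 0.33). Sertoli markers in the same cells were at 175 and 222 CPM and 75.4 and 77.5 CPM, and their part was not tested.

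*Rhox5*, *Rhox6* and *Rhox9* were low in germ cluster 4 and high in germ cluster 3 of control XX. *Rhox5* was there at 14.1 and 8.83 CPM in cluster 4, 222 and 161 CPM in cluster 2 and 586 and 498 CPM in cluster 3. *Rhox6* was at 40.8 and 37.7 CPM, 146 and 151 CPM, and 217 and 210 CPM in the same clusters, and *Rhox9* at 37.5 and 34.3 CPM, 173 and 182 CPM, and 385 and 375 CPM. For each of the 3 genes the clusters stood in the order 4, 2, 3 with no overlap between libraries. Cluster 4 was below cluster 3 in each of them, with log2 differences of -5.26 ± 0.29, -2.11 ± 0.20 and -3.07 ± 0.20 (edgeR, adjusted p = 1.11e-13, 1.06e-09 and 1.28e-12), in a contrast that called 51% of genes. Cluster 2 was below cluster 3 in *Rhox5* and *Rhox9* (-1.32 ± 0.22 and -0.92 ± 0.18; edgeR, adjusted p = 7.87e-05 and 0.000378, 25.2% of genes called), and *Rhox6* was not called between these clusters (-0.35 ± 0.18; edgeR, adjusted p = 0.171). *Rhox8* was not called in either contrast (edgeR, adjusted p = 0.805 and 0.711). The fit of germ clusters, also used within clusters below, had no library block. Clusters of the same library entered it as independent sums, so its SE and p-values leave out that pairing. The 12 cells of cluster 0 in the first control XX library had 699 CPM of *Rhox5*, 329 CPM of *Rhox6* and 608 CPM of *Rhox9*.

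**Figure D4:**
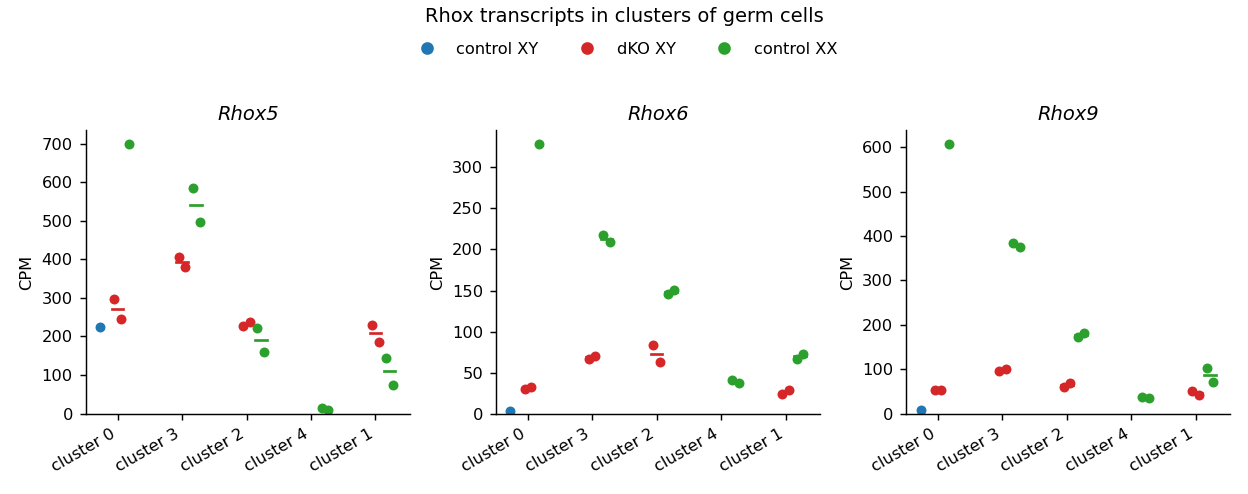
Levels of *Rhox5*, *Rhox6* and *Rhox9* (CPM) in germ cell clusters 0, 3, 2, 4 and 1, with 1 point per library of at least 10 cells of the cluster, coloured by group, and a bar at the group mean. *Rhox6* and *Rhox9* of control XX lie above those of dKO XY in each cluster that both groups hold; cluster 4 holds control XX cells alone.

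Within germ clusters, *Rhox6* and *Rhox9* were lower in dKO XY than in control XX in each of the 3 clusters with 2 libraries of both groups, and *Rhox5* was higher in 1 of these, cluster 1. In cluster 3, *Rhox6* was at 66.6 and 70.6 CPM in dKO XY and *Rhox9* at 95.8 and 99.7 CPM, which gave log2 differences from control XX of -1.51 ± 0.19 and -1.83 ± 0.19 (edgeR, adjusted p = 4.36e-05 and 6.77e-07) where 0.632% of genes were called. In cluster 2, *Rhox6* was at 83.8 and 62.7 CPM and *Rhox9* at 59.6 and 68.6 CPM in dKO XY, with differences of -1.10 ± 0.21 and -1.57 ± 0.21 (edgeR, adjusted p = 0.00322 and 6.06e-05) where 1.71% of genes were called. In cluster 0, *Rhox6* was at 29.5 and 32.9 CPM and *Rhox9* at 53.2 and 52.9 CPM in dKO XY, below the 329 and 608 CPM of the 12 control XX cells. With 1 control XX library this difference holds no spread between control XX libraries and is given with no test, beside 2.02% of genes called by the fit. In cluster 1, *Rhox6* was at 23.8 and 29.2 CPM in dKO XY against 67.1 and 72.3 CPM in control XX, and *Rhox9* at 51.8 and 41.7 CPM against 103 and 72.3 CPM, with differences of -1.28 ± 0.21 and -0.76 ± 0.20 (edgeR, adjusted p = 3.85e-05 and 0.00493) where 24.6% of genes were called. *Rhox5* of dKO XY was at 405 and 381 CPM in cluster 3 and at 227 and 239 CPM in cluster 2. Its log2 differences were -0.34 ± 0.22 in cluster 3 and 0.19 ± 0.23 in cluster 2 (edgeR, adjusted p = 0.656 and 0.807). In cluster 0 it was at 296 and 244 CPM in dKO XY, against 699 CPM in the 12 control XX cells. In cluster 1 it was at 230 and 186 CPM in dKO XY against 144 and 75.2 CPM in control XX, higher by 1.06 ± 0.23 (edgeR, adjusted p = 0.00099). Without the cells of cluster 1, which also carry somatic transcripts, the difference over the other germ cells was 0.77 (edgeR, adjusted p = 0.00398). That sum includes cluster 4, which holds control XX cells alone.

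Between dKO XY and control XX germ cells, X-linked genes had a median log2 difference of -0.350 over 481 genes, of which 62.2% had a lower value in dKO XY, against 0.0592 and 47.3% over 12613 autosomal genes. Within clusters 2, 3, 0 and 1 the median of 440 X-linked genes was -0.488, -0.372, -0.357 and -0.291. *Rhox6* and *Rhox9* lay below these medians in each case. Of 15 other Rhox genes tested between dKO XY and control XX germ cells, 8 were lower and 1 was higher, where 24.7% of all genes were called lower and 24.9% higher, with a median of -0.704 against 0.0205 over all genes. *Rhox7a* was at 38.3 and 50.6 CPM in control XX and 6.41 and 5.06 CPM in dKO XY, *Rhox7b* at 67.5 and 68.8 CPM and 13.3 and 12.5 CPM, and *Rhox13* at 67.7 and 62.6 CPM and 10.4 and 10.5 CPM. Their log2 differences were -2.87 ± 0.24, -2.33 ± 0.20 and -2.57 ± 0.21 (edgeR, adjusted p = 1.62e-15, 1.07e-14 and 6.12e-16). Within germ clusters *Rhox7b* was called lower in clusters 1, 2 and 3 (log2 changes of -2.18, -1.18 and -1.34) and *Rhox7a* in clusters 1 and 2 (-2.75 and -1.80). *Rhox13* was called in cluster 1 (-1.97; edgeR, adjusted p = 4.89e-05) and not in clusters 2 and 3, with -0.49 and 0.61 (edgeR, adjusted p = 0.451 and 0.641). *Rhox10* was the higher one, at 2.66 and 1.78 CPM in dKO XY against 0.516 and 0.257 CPM in control XX, and it was at 62.6 and 10.2 CPM in control XY, from 31 and 4 UMIs. Of the 16 genes listed as neighbours of the Rhox cluster, 13 were tested, and 5 were lower in dKO XY germ cells (edgeR), namely *Nkrf*, *Rpl39*, *Nkap*, *Ndufa1* and *Lamp2*, with a median of -0.375. This contrast called 24.7% of all genes lower and 49.6% in either direction.

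In supporting cells, *Rhox5*, *Rhox6* and *Rhox9* were low. Over all supporting cells together, their differences between the XY groups moved with germ cell transcripts. *Rhox5* had 8.01 and 3.40 CPM in control XY, 18.8 and 21.1 CPM in dKO XY and 4.18 and 4.20 CPM in control XX. *Rhox9* was at 0.775 and 0.392 CPM, 2.61 and 3.38 CPM, and 3.01 and 2.64 CPM. *Rhox6* had no UMI in control XY supporting cells, where 3 UMIs would be 0.387 and 0.196 CPM, and was at 1.28 and 2.07 CPM in dKO XY and 2.54 and 2.37 CPM in control XX. dKO XY libraries were above control XY libraries for each of the 3 genes.

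In dKO XY compared with control XY supporting cells, *Rhox5* was higher by 1.91 ± 0.30 and *Rhox9* by 2.49 ± 0.41 on the log2 scale (edgeR, adjusted p = 0.00226 and 0.00275). Without the first and the second control XY library *Rhox5* was higher by 2.55 and 1.31. The *Rhox9* call was lost without the second (1.94; edgeR, adjusted p = 0.0525). *Rhox6* was at least 12.8-fold higher, taking 3 UMIs over the group as the floor of control XY (120 UMIs against 0; edgeR, adjusted p = 0.0015). Control XX exceeded control XY in *Rhox6* at least 19.2-fold (287 UMIs against 0; edgeR, adjusted p = 0.000147) and in *Rhox9* by 2.37 ± 0.41 (edgeR, adjusted p = 0.00093). Without the cells at a log level of 1 or more of *Sycp3* or *Tcf21*, the *Rhox9* difference was 1.35 and was not called (edgeR, adjusted p = 0.0502). *Rhox5* differed by -0.39 ± 0.32 (edgeR, adjusted p = 0.336), and without the second control XY library this difference was -0.99 and was called (edgeR, adjusted p = 0.00996). dKO XY exceeded control XX in *Rhox5* by 2.30 ± 0.28 (edgeR, adjusted p = 0.000112) and differed by -0.50 ± 0.32 in *Rhox6* and 0.13 ± 0.27 in *Rhox9* (edgeR, adjusted p = 0.245 and 0.742). These 3 contrasts share their libraries. Of 6 other Rhox genes tested between dKO XY and control XY, 2 were higher and 1 was lower, where 9.84% of all genes were called higher and 6.95% lower. *Rhox2a* was at 2.20 and 2.89 CPM in dKO XY and 0.904 and 0.0653 CPM in control XY (2.79 ± 0.68; edgeR, adjusted p = 0.0194), and *Rhox13* had 21 and 15 UMIs in dKO XY and none in control XY (edgeR, adjusted p = 0.0112). *Rhox10* had 2 and 8 UMIs in dKO XY and 8 and 9 in the fewer cells of control XY (log2 change -2.42 ± 0.73; edgeR, adjusted p = 0.0497).

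Restricted to clusters 2 and 4 of the supporting cells, *Rhox5* was at 26.2 and 30.8 CPM in dKO XY against 10.1 and 3.28 CPM in control XY, a log2 difference of 2.18 ± 0.40 (edgeR, adjusted p = 0.00353). Without the first and the second control XY library it was 3.08 and 1.44. *Rhox9* was at 3.77 and 5.35 CPM against 0.995 and 0.328 CPM, a difference of 2.94 ± 0.58 (edgeR, adjusted p = 0.00535). That call was lost without the second control XY library (2.13; edgeR, adjusted p = 0.105), with components of supporting cells alone (1.93; edgeR, adjusted p = 0.0686) and at a clustering resolution of 0.5 (1.47; edgeR, adjusted p = 0.209), and the difference was 3.74 without the first control XY library. *Rhox6* was at least 14.6-fold higher (93 UMIs against 0, with 3 UMIs over the group as the floor; edgeR, adjusted p = 0.00249). In cluster 4 alone, without the cluster led by germ cell genes, *Rhox5* was called (2.01; edgeR, adjusted p = 0.00828). *Rhox9* was not called there (2.94; edgeR, adjusted p = 0.0827). The germ cell marker level of cluster 4 alone is not given here. Over clusters 2 and 4, dKO XY libraries carried 366 and 493 CPM of these markers, beside 148 and 40.1 CPM for control XY. *Rhox5* UMIs per 100 marker UMIs overlapped between the groups. They were 7.15 and 6.25 for dKO XY, beside 6.83 and 8.20 for control XY. The part of germ cell transcripts in these differences was not tested. In clusters 0 and 1 *Rhox5* was at 14.2 and 18.0 CPM in dKO XY and 3.83 and 2.11 CPM in control XX.

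The 8 germ cell markers, none of them at 0, summed to 119 and 35.1 CPM in control XY, 242 and 313 CPM in dKO XY and 108 and 146 CPM in control XX supporting cells, against 3885 to 5555 CPM in germ cells. For every 100 UMIs of these markers, dKO XY supporting cells held 7.79 and 6.75 UMIs of *Rhox5*, and dKO XY germ cells 6.42 and 6.15. In control XY these ratios were 6.74 and 9.68 in supporting against 4.81 and 5.11 in germ cells, and in control XX 3.87 and 2.88 against 5.64 and 2.17. For *Rhox6* they were 0.529 and 0.662 in dKO XY supporting cells against 0.797 and 0.968 in germ cells, and 2.35 and 1.63 against 3.14 and 1.93 in control XX. For *Rhox9* they were 1.08 and 1.08 against 1.30 and 1.43, and 2.78 and 1.81 against 4.46 and 2.33. Counted against germ cell markers, *Rhox6* and *Rhox9* were below their germ cell level in the supporting cells of each dKO XY and control XX library. In control XY, from 3 and 1 germ cell UMIs and 6 and 6 in supporting cells, *Rhox9* lay the other way, at 0.652 and 1.12 in supporting against 0.144 and 0.0460 in germ cells, and *Rhox6* had no UMI in supporting cells. *Rhox5* was above it in 5 of 6 libraries. The XY groups, which did not overlap in the *Rhox5* level of supporting cells, overlapped in this ratio.

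**Figure D5:**
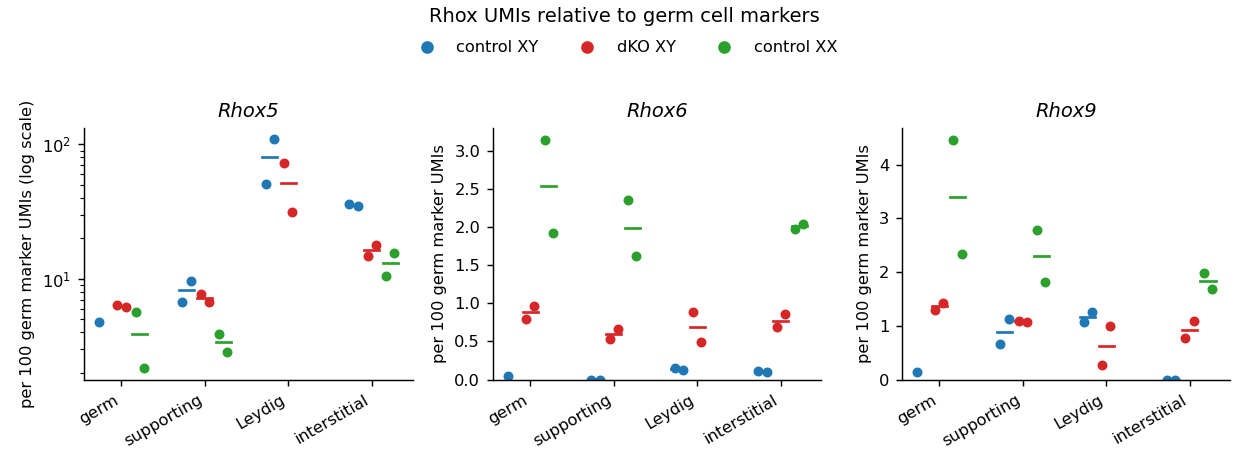
UMIs of *Rhox5* (log scale), *Rhox6* and *Rhox9* for every 100 UMIs of the 8 germ cell markers in germ, supporting, Leydig and interstitial cells, with 1 point per library of at least 10 cells, coloured by group, and a bar at the group mean. Supporting cells lie near germ cells for *Rhox5* (2.88 to 9.68 against 2.17 to 6.42), whereas Leydig cells lie at 31.4 to 109.

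Interstitial cells showed the same direction. *Rhox5* was at 5.64 and 8.52 CPM in dKO XY against 2.67 and 2.72 CPM in control XY, a log2 difference of 1.38 ± 0.20 (edgeR, adjusted p = 0.00885). *Rhox6* had 66 UMIs in dKO XY against 2 in control XY, a ratio of 42.5 per total UMIs of these cells, with an exact interval of 11.3 to 359 for counting error (edgeR, adjusted p = 0.00462). *Rhox9* had 80 UMIs against 0, at least 34.4-fold higher by the same floor (edgeR, adjusted p = 0.00647). Germ cell markers in these cells were at 37.9 and 47.5 CPM in dKO XY and 7.38 and 7.80 CPM in control XY, and for every 100 of their UMIs *Rhox5* had 14.9 and 17.9 in dKO XY against 36.1 and 34.9 in control XY. For *Rhox5* the ratio therefore ran against the difference in level, and for *Rhox6* and *Rhox9* it ran with it. *Rhox6* had 0.683 and 0.854 in dKO XY against 0.106 and 0.0955 in control XY. *Rhox9* had 0.777 and 1.08 against 0 and 0. Immune cells of dKO XY had 5.75 and 7.78 CPM of *Rhox5* with 130 and 127 CPM of germ cell markers, against 0.533 and 1.04 CPM with 6.40 and 6.56 CPM in control XY.

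The difference between dKO XY and control XX was lower in germ than in supporting cells for *Rhox5* and *Rhox9*. The differences of log2 differences were -1.47 ± 0.45 and -1.26 ± 0.39 (edgeR, adjusted p = 0.00862 and 0.00975), in a contrast that called 44.3% of genes, and that of *Rhox6* was -0.87 ± 0.36 (edgeR, adjusted p = 0.0503). Between dKO XY and control XY, the *Rhox9* difference was larger in interstitial than in supporting cells by 3.73 ± 1.15 (edgeR, adjusted p = 0.0279), a fitted value that depends on the prior count, since control XY interstitial cells had no *Rhox9* UMI.

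Outside the germ cells, the highest *Rhox5* level of control XY was that of Leydig cells, which held 14.8% of its UMIs over all libraries. *Rhox5* was at 9.84 and 20.2 CPM in control XY (15.0 ± 7.35, SD, n = 2) and at 30.1 and 17.2 CPM in dKO XY Leydig cells (23.6 ± 9.13). The libraries of the groups overlapped, and the log2 difference was 0.62 ± 0.34 (edgeR, adjusted p = 0.355). Without the second control XY library it was 1.23 and was called (edgeR, adjusted p = 2.27e-07), and without either the first control XY or a dKO XY library it was 0.14 to 0.99 and was not. In control XY, Leydig cells exceeded supporting cells by 1.89 ± 0.45 on the log2 scale (edgeR, adjusted p = 0.000686), in a contrast that called 55.8% of genes, and in dKO XY the levels of the cell types overlapped. Thinned cells with a *Rhox5* UMI made up 2.47% and 2.71% of control XY Leydig cells, and 3.98% and 4.41% of those of dKO XY, and before thinning 9.24% and 9.50%, and 15.3% and 16.4%. In immune and endothelial cells, which should lack the gene, the thinned share was 0 in control XY, with exact 95% upper limits of 2.38% to 3.69%. Both Leydig shares of control XY, 2.47% and 2.71%, lay within the range of these limits. In dKO XY the thinned share was 0.474% and 3.74% in immune and 0.391% and 2.48% in endothelial cells. In the second dKO XY library the exact 95% interval of Leydig cells (3.04% to 6.17%) overlapped that of immune cells (1.03% to 9.30%). Such intervals take cells as independent, and their overlap is not a test.

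Few Leydig cells held most of these UMIs. Cells with 10 or more *Rhox5* UMIs numbered 24 of 1873 in control XY and held 854 of the 1204 UMIs (70.9%), and 23 of 1429 in dKO XY held 993 of 1394 (71.2%). They were found in each XY library, with 7 and 17 cells in control XY and 14 and 9 in dKO XY, and a single cell held up to 100 UMIs. Of these cells, 0 in control XY and 2 in dKO XY also had 10 or more UMIs of the germ cell markers, and 4 and 3 were among the 8% of cells with the highest doublet scores. Those 8% took in 74 of 768 and 135 of 1105 Leydig cells of control XY, and 76 of 704 and 80 of 725 of dKO XY. In supporting cells of dKO XY, 23 of the 30 cells with 10 or more *Rhox5* UMIs also had 10 or more germ cell marker UMIs. Supporting cells of dKO XY carried these markers at 242 and 313 CPM, so a limit of 10 is reached more easily there. Leydig cells of both groups held 19.4 and 18.5 CPM (control XY) and 41.6 and 54.6 CPM (dKO XY) of these markers, and for every 100 of their UMIs 50.8 and 109, and 72.4 and 31.4, UMIs of *Rhox5*. All 4 XY libraries were thus above the 4.81 to 6.42 of XY germ cells.

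Genes of DNA methylation, which keeps several Rhox genes silent, were counted next. Of 8 such genes, *Tet1*, which oxidises methylated cytosine, was higher in supporting cells of dKO XY than of control XY by 1.12 on the log2 scale, and *Uhrf1* and *Dnmt1*, which maintain methylation, were lower by log2 changes of -0.64 and -0.41 (edgeR, adjusted p = 0.00341, 0.0047 and 0.0452). Germ cell markers moved with *Tet1* in these sums, at 119 and 35.1 CPM in control XY and 242 and 313 CPM in dKO XY, and their part was not tested. Supporting cluster 4, led by genes of dividing cells, held 66 of 236 and 171 of 517 supporting cells in control XY. In dKO XY it held 215 of 1256 and 135 of 949, and its part in *Uhrf1* and *Dnmt1* was not tested. Between dKO XY and control XX germ cells, *Tet1*, *Dnmt3a* and *Dnmt1* were higher in dKO XY by 3.20, 0.72 and 0.46 on the log2 scale (edgeR). In supporting cells 3 of the 8 passed the test where 16.8% of all genes did, and in germ cells 3 of the 8 where 49.6% did.

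The genes whose pattern over the 45 sums of cell type and library was most like that of each member were found by Pearson correlation of log2 CPM. For *Rhox5* these were *Nefh* (0.88), *Tex19.2* (0.87), *Utf1* (0.85), *Syn1* (0.85) and *Parg* (0.85). For *Rhox8* they were *Clu* (0.90), *Wnt6* (0.89), *Tle6* (0.88), *Tnni3* (0.88) and *Cela3b* (0.88). *Rhox6* was followed by *Dmrtc2* (0.95), *Syce3* (0.94), *Dnajc5g* (0.94), *Tex11* (0.92) and *Ankrd31* (0.92), and *Rhox9* by *Tex11* (0.94), *Mov10l1* (0.94), *Slc25a31* (0.93), *Ankrd31* (0.93) and *Tuba3a* (0.92). Among the members, *Rhox6* and *Rhox9* were most alike (0.93), *Rhox5* correlated with *Rhox9* at 0.76 and with *Rhox6* at 0.70, and *Rhox8* with the others at 0.14 to 0.41. These sums come from 6 libraries and 8 cell types and differ in depth, so the values describe likeness alone.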

How the data were processed

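Raw UMI counts, listed by gene symbol and barcode, were deposited for each of the 6 libraries, made with Cell Ranger (v3.0 in the methods) on mm10 and corrected for barcode swapping, without normalization. The submitters' processing notes also name Seurat 4.0. Between 23157 and 24248 genes are listed per library.

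Barcodes were kept if they held over 2500 and under 9000 genes, with mitochondrial UMIs below 25% and *Hbb* UMIs below 20%, and were clustered with Seurat 5.3.0 in R 4.3.3 (scale of 10000, 3000 variable genes without 11 Rhox genes, *Amh* and *Inhbb*, 20 dimensions, resolution 0.21). Supporting cells with a log level under 1 of *Sycp3* and *Tcf21* were clustered again on the same components (8 dimensions, resolution 0.25). A cluster took the name of a marker list with at least 3 markers in 10% of its cells at 1.5 times the level elsewhere. Germ cells were clustered again after their levels were seen (2000 variable genes, 10 dimensions, resolution 0.3). Scrublet, run with scanpy 1.11.5, marked between 1 and 250 cells per library by its own threshold, so doublets were kept, and an alternative left out the 8% with the highest scores.

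Sums of UMIs over each cell type of a library with at least 10 cells were tested with edgeR 4.0.16 (filterByExpr, TMM, quasi-likelihood test). Group was the only factor, with the library as a block where cell types, or supporting clusters within dKO XY, were compared. Germ clusters, and supporting clusters 2 and 4 between groups, were fitted with group and cluster as 1 factor. Those fits had no library block, so sums of the same library entered as independent. All P-values were adjusted by Benjamini-Hochberg over all genes tested and called under 0.05. The SE is the log2 fold change divided by the root of F. With 2 libraries against 2, the smallest two-sided p of an exact permutation test is 0.333. Leydig cells were fitted in the XY libraries alone, and control XY germ cells entered with 1 library. DESeq2 1.42.0, other normalization, filters, doublet removal and clustering, a replicate block and leaving out each library were alternatives. Tests were checked on simulated data. Sequences are GENCODE M21 transcripts on GRCm38, matched by symbol. The libraries are called biological replicates in the methods. Genes named were the members, other Rhox genes, lists of neighbours and DNA methylation genes, and the 5 genes most correlated with each member. A further list, of transcription factors, is not reported here. The members and lists were chosen with earlier results of these data known.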

Additional observations from a re-analysis of the deposited data

Results flagged for a closer look

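Differences between groups that themselves differed between cell types were singled out by a test of the difference in 1 edgeR fit over all cell types. For *Rhox8*, the log2 difference between dKO XY and control XY was larger in Leydig cells than in supporting cells by 1.19 and larger in interstitial than in supporting cells by 1.25 (edgeR, adjusted p = 0.000742 and 0.000566). For *Rhox9* the same difference was larger in interstitial than in supporting cells by 3.73 (edgeR, adjusted p = 0.0279), a fitted value against control XY interstitial cells without a *Rhox9* UMI. For the log2 difference between dKO XY and control XX, germ cells were below supporting cells by a value of -1.47 for *Rhox5* and -1.26 for *Rhox9* (edgeR, adjusted p = 0.00862 and 0.00975). Groups had 2 libraries each, so no test for single libraries far from the others was made.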

How the results depend on the processing

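Of 712 results of the members' tests under an alternative, 666 kept their side of the threshold, and their direction where the main result was called. Some of them that were not called changed sign. For dKO XY against control XY in supporting clusters 2 and 4, *Rhox8* was at -0.20, and at 0.0514 without the cluster led by germ genes. The cause of the changes below was not tested, except where fewer libraries or cells entered. In Leydig cells, *Rhox5* was called without a filter on low counts (0.60). Without each library in turn it ran from 0.14 to 1.23, its difference of supporting clusters 0, 1 and 3 from 2 and 4 in dKO XY from -1.47 to -1.44, its germ cell difference of control XX from control XY from -0.99 to 0.15, and of dKO XY from control XX from 0.41 to 1.55. The latter was 0.82 by DESeq2, 0.19 within germ cluster 2, 1.06 within germ cluster 1, where it was called, and turned to -1.15 and -0.34 within germ clusters 0 and 3. *Rhox5* of dKO XY against control XY germ cells was called without the filter (0.78). In supporting cells of control XX against control XY it ran from -0.99 to 0.23 without each library. *Rhox6* of supporting clusters 0, 1 and 3 against 2 and 4 was at -2.47 by DESeq2 and from -2.88 to -2.06 without each library. Its germ against supporting difference in control XY was called by DESeq2 (6.89) and with cells of more than 1500 genes (8.32). Control XY supporting cells had no *Rhox6* UMI under the main filter, so the size of these fitted values is not a measured fold. *Rhox8* of supporting clusters 0, 1 and 3 against 2 and 4 was called without doublets (0.57), with more than 1500 genes (0.61), without the filter (0.59) and without 3 of the libraries in turn (0.57, 0.59 and 0.76), with a range of 0.42 to 0.76 over all, and its germ cell difference of control XX from control XY was called with more than 1500 genes (-1.92). In germ cells of dKO XY against control XX, *Rhox8* was no longer called by DESeq2 (0.92), with 5 germ cells as the minimum (0.95), with more than 1500 genes (0.91), within germ clusters 0 (0.89), 1 (0.32) and 3 (2.25), or without the second control XX or the second dKO XY library (0.83 and 0.65, in a range of 0.65 to 1.24 over all libraries), and was at -0.67 within germ cluster 2. In interstitial cells *Rhox8* was called by DESeq2 and without the filter (1.44 each), and ran from 1.00 to 2.07 without each library. *Rhox9* of supporting clusters 2 and 4 lost its call without the cluster led by germ genes (2.94), with components of supporting cells alone (1.93) and at a resolution of 0.5 (1.47), and ran from 2.13 to 3.74 without each library. It ran from -1.89 to -1.68 between supporting clusters and from 1.94 to 2.92 for dKO XY against control XY supporting cells, was called for germ against supporting cells of control XY by DESeq2 (3.47), and lost its call for control XX against control XY supporting cells without *Sycp3* and *Tcf21* cells (1.35).

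Genes called in Leydig cells numbered 971, 2154 without the filter, and 809 to 1672 without each library. In supporting clusters 0, 1 and 3 against 2 and 4 they numbered 6948, 3528 by DESeq2, and 1615 to 8591 without each library. In germ cells of dKO XY against control XX they numbered 7290, 4536 by DESeq2 and 256, 3115, 216 and 80 within germ clusters 0, 1, 2 and 3. Against control XY they numbered 1440, 858 by DESeq2, 537 with 5 germ cells and 662 with more than 1500 genes. Without each library the counts ran from 936 to 1503 in supporting clusters 2 and 4 (1737 with all), from 339 to 1305 in interstitial cells (1222) and from 1194 to 2629 in supporting cells of dKO XY against control XY (2671).

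The replicate numbers of the labels were not taken as pairs. In supporting cells, deviations of libraries with the same number correlated at -0.0865, -0.18 and -0.00215 over 15905 genes, which cannot exclude that libraries were handled in pairs. With the replicate block, 1 of 34 calls of the members changed, *Rhox8* in germ cells of dKO XY against control XX (0.94; edgeR, adjusted p = 0.0564), and the genes called were 2023 in Leydig, 728 in interstitial and 901 in germ cells of dKO XY against control XY.

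Depth limits the low values: 3 UMIs are 6.05 and 7.67 CPM in control XY germ cells, so *Rhox6* and *Rhox9* there were at or near the limit of detection.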

Other observations

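Members also had UMIs in cell types outside the comparisons. In pericytes of dKO XY, *Rhox5* was at 7.36 and 3.54 CPM and *Rhox8* at 6.29 and 5.49 CPM. In those of control XY, *Rhox5* overlapped with this, at 6.49 and 2.23 CPM, and *Rhox8* was lower, at 0.433 and 2.55 CPM. In epithelial cells, *Rhox8* was at 11.1 and 17.5 CPM in dKO XY and at 10.6 and 4.86 CPM in control XX, where it was second to supporting cells. In the 30 and 41 epithelial cells of control XY, *Rhox8* was at 0.857 and 2.47 CPM, from 1 and 4 UMIs. These differences between the XY groups were not tested. *Rhox5* of epithelial cells was at 5.42 and 17.2 CPM in dKO XY. Germ cell markers moved with the latter, at 83.4 and 255 CPM, and for every 100 of their UMIs *Rhox5* had 6.50 and 6.76, beside 6.42 and 6.15 in dKO XY germ cells. In pericytes of dKO XY these markers were at 50.3 and 57.0 CPM, with 14.6 and 6.21 *Rhox5* UMIs for every 100. Their part in these levels was not tested.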
